A study of Mus musculus with 24 samples.

Results

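Histones are the proteins that DNA is wound around, and their genes fall into a replication-dependent set and a set of variants. The 75 histone genes described here were chosen by name among the 56748 genes of a mouse count table, of which 21970 are protein coding. The rule took protein-coding genes whose symbols start with the stems of the H1, H2A, H2B, H3 and H4 genes, in old or new nomenclature, and left out the H2 antigen genes of the MHC. Of the 75, 65 are genes of the replication-dependent clusters, with 54 on chromosome 13, 10 on chromosome 3 and 1 on chromosome 6. The cluster set holds 6 linker H1 genes, 17 H2A, 17 H2B, 12 H3 and 13 H4 genes. The other 10 are variant or solitary genes, namely H1f0, H1f7, H1f8, H1f9, H1f10, H2az1, H2az2, H3f3a, H3f3b and H3f4, the last placed here after the table was seen.

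RNA was sequenced in 24 bulk libraries of purified T cells with the genotype WT that were polarised in culture by standard protocols. They were activated CD8 cells, Treg, Th17 and Th1 cells. Each kind received either DMSO, the vehicle, or a perhydroquinoxaline-derived agonist of the kappa opioid receptor (KOR), of which there were 5: WMS-83-02, WMS-64-07, WMS-200-01, WMS-76-04A and WMS-75-13, here written without the last part. In the sample titles that last part differs between cell types for 4 of these names, all but WMS-76-04A, whereas the protocol has only the names above. The codes in the column names, the same in all cell types, were taken as the compounds, and every compound result below rests on that. Exposure was to 0.1 µM and lasted up to 5 days. With 1 library for each cell type and treatment, the 6 libraries of any cell type all had different treatments, and a compound can be compared with DMSO only across the 4 cell types. Every p-value below measures the spread between these libraries, since nothing says which came from separate cultures or animals.

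Replication-dependent histone genes are transcribed mainly in S phase, when new DNA has to be packaged. Their mRNAs usually end in a short stem-loop, bound by SLBP, in place of a poly(A) tail, and are degraded when replication stops. Core histones H2A, H2B, H3 and H4 form the nucleosome, and linker histone H1 binds where DNA enters and leaves it. Variant genes are expressed outside S phase too and give polyadenylated mRNAs: H3f3a and H3f3b encode the same protein, H3.3, H2az1 and H2az2 encode the H2A.Z proteins found at promoters, and H1f0 encodes H1.0, a linker histone known for accumulating in cells that have left the cycle. Because these libraries were enriched for poly(A) RNA, the counts of cluster genes are those of the transcripts that passed that step and are not a measure of all histone mRNA.

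The stem-loop is shown because it separates the sets by sequence. It was searched for as a 16-base core, capitalised below, in the coding transcript models of GENCODE M21 (GRCm38), 5′ to 3′ behind the stop codon, with 5 bases on either side.
H1f2: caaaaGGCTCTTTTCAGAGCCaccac
H1f3: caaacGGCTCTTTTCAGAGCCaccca
H3c3: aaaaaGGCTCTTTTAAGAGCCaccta
H3c8: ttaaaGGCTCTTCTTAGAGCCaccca
H4c9: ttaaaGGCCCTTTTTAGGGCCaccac
H4c4: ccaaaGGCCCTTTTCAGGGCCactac
H2bc11: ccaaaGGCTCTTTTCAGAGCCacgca
H2ac8: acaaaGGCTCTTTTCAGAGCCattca
The pattern was found in 44 of 65 cluster genes, in 0 of the 9 variant genes with a coding model and in 21 of 22453 other coding genes (0.094%). There were 8 distinct cores, and the most frequent, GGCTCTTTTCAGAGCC, occurred in 24 genes. The loop began 21 to 58 bases behind the stop codon, with a median of 31. In 21 of the 44 genes the model ran on for 100 bases or more behind the loop, and 12 genes had the letters AATAAA there, the usual poly(A) signal. Among these 12 were H1f2, with 840 bases behind its loop, and H1f3, with 4884. Of the 21 cluster genes without the pattern, 16 have models that end fewer than 40 bases behind the stop codon, so the search had little or no sequence to read in them. H4c9, H4c4 and H3c6, which are among the higher expressed core genes, had 330, 770 and 369 bases behind their loops, and H2bc11 and H3c8 had 23 and 47.

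Promoters of the linker genes are shown because all 5 expressed cluster H1 genes differed together between cell types, while H1f0 differed in another way. Each line gives the 250 bases before the RefSeq start (GRCm38.p6), 5′ to 3′ on the gene's strand. Capitals mark exact matches, on either strand, to the CCAAT box, to the TATA letters TATAAA, to the octamer ATTTGCAT or to the letters AAACACA, the core of the element known as the H1 box.
H1f1 (chr13:23763418-23763667, plus strand): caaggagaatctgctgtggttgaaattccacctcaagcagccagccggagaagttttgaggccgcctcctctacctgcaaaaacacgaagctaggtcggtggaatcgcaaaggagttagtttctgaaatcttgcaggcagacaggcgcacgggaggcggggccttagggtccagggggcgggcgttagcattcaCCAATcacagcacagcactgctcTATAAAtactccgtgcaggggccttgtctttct
H1f2 (chr13:23738557-23738806, plus strand): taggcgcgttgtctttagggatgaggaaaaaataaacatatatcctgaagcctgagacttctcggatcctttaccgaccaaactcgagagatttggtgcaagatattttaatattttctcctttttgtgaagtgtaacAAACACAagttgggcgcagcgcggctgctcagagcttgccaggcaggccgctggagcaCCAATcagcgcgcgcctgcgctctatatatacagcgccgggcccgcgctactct
H1f3 (chr13:23554782-23555031, plus strand): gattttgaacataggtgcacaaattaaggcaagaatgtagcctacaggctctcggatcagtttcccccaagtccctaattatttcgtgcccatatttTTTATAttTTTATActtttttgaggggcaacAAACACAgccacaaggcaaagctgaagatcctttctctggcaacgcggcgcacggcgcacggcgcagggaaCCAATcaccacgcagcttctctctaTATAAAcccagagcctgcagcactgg
H1f4 (chr13:23622559-23622808, minus strand): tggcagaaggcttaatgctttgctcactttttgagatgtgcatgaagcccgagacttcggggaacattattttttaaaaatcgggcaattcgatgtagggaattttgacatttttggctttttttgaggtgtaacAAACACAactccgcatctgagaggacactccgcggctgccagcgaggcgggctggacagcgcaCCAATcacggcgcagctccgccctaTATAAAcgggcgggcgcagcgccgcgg
H1f5 (chr13:21780626-21780875, minus strand): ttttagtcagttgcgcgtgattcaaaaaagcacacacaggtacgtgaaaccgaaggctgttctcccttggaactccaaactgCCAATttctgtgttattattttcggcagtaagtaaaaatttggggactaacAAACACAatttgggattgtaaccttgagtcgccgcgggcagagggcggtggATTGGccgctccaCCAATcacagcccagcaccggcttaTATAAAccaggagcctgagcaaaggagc
H1f0 (chr15:79027962-79028211, plus strand): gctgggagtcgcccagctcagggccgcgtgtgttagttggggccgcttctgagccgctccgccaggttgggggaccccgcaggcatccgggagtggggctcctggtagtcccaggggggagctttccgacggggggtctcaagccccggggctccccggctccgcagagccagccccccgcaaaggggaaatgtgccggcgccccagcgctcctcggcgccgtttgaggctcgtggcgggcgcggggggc
The H1 box letters stood 112 bases before the start in H1f2, 122 in H1f3, 115 in H1f4 and 117 in H1f5, and were not matched in H1f1. A CCAAT lay 51 to 56 bases before the start in each of these 5 genes, and TATAAA lay 26 to 33 bases before it in H1f1, H1f3, H1f4 and H1f5. None of the 4 motifs was in the window of H1f0. RefSeq promoters matched 68 of the 75 members. CCAAT was in 81.7% of the 60 cluster promoters and in 33.8% of all 32851 promoters of this length, TATAAA in 46.7% against 12.4%, the octamer in 21.7% against 1.6%, and the H1 box letters in 15.0% against 6.2%. By family, the octamer was in 35.3% of H2A and 46.7% of H2B cluster promoters and in 0 of the H1, H3 and H4 ones. These matches describe the letters only.

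The libraries held 15188284 to 21946887 counts. In CPM, counts per 1000000 after TMM scaling, Cd8a averaged 389 in CD8 libraries, Foxp3 282 in Treg and Il17f 831 in Th17, each highest there. Other markers were not highest in their own cell type. Tbx21 averaged 202 CPM in Th1 and 224 in CD8, and Ifng 592 and 1369. Cxcr3 was at 16.7 CPM in Th1 and 29.9 in Treg, Ccr6 at 31.6 in Th17 and 57.1 in Treg, and Il2ra at 1070 in Treg and 1894 in CD8. Cd8a also reached 84.1 CPM in Th17, and Cd4 181 in CD8. Treg libraries stood apart in composition. Ribosomal protein genes took 1.66% to 2.87% of their counts against 9.65% to 12.8% in the other 18 libraries, and genes shorter than 1000 bases took 0.555% to 0.797% against 1.63% to 2.29%. The summed level of 4 B cell markers was 5.03 to 9.57 CPM in Treg libraries and 0.867 to 5.66 CPM elsewhere. Column names also hold a WT number of unexplained meaning, which is 4 for every Th1 library and 2 for every CD8 library, so in comparisons with Th1 the cell type and that number cannot be told apart. In bulk RNA, fewer cells in S phase and less RNA per cell cannot be told apart either.

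Of the 75 histone genes, 42 passed the filter on low counts, 36 cluster genes and 6 variants, among 15885 genes tested. Another 9 had no count in any library and the other 24 had between 1 and 156 counts over all libraries. Cluster genes held 27419 counts in all and variants 419896. Per kilobase, averaged over the libraries, the variants stood highest: H3f3b at 127.7 CPM per kb, H2az1 at 121.8, H3f3a at 74.5, H2az2 at 24.6 and H1f0 at 18.2. The highest cluster genes were H4c9 at 8.72 CPM per kb, H2bc11 at 7.82, H3c3 at 6.21, H3c1 at 5.86 and H1f2 at 5.01. Many cluster genes are near copies of each other. In the reference transcripts, a median of 53.6% of the 50-base windows of the 36 tested cluster genes occurred in no other gene, against 64.6% to 100% in variants, and how reads matching several genes were counted is not given in the sources used here. Values of H3c10, with 6.1% of windows unique, H2ac13 with 9.9% and H3c11 with 12.4% are therefore uncertain, while H1f2 has 91.5%, H1f3 97.7% and H1f1 and H1f5 100%. H1f4 has 68.0% and shares most windows with H2bc6. In the file it also overlaps H2bc6 and Gm11398 on the same strand.

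Reads in cluster genes were most frequent in CD8 and Th1 libraries and less frequent in Treg and Th17. In RPM, reads per 1000000 counts of the library, they made up 72.9 ± 6.10 in CD8 (SD, n = 6), 70.2 ± 4.30 in Th1, 52.3 ± 6.14 in Treg and 45.8 ± 3.26 in Th17 cells. All 12 Th1 and CD8 libraries, at 62.2 to 80.3, lay above all 12 Th17 and Treg libraries, at 41.4 to 59.4. RPM is not TMM-scaled. The mean TMM factor was 1.20 in Treg and 0.944 in Th17 libraries, so the order of Treg and Th17 depends on that scaling. Variant genes were ordered differently, with 1092 ± 82.7 RPM in Th17, 930 ± 19.5 in Th1, 912 ± 30.4 in CD8 and 745 ± 109 in Treg. The DMSO library of Treg cells was the lowest of all at 568. By family, the linker genes differed most between CD8 and Th17, at 18.4 ± 2.84 against 6.73 ± 1.04 RPM, and H3 genes were lowest in Treg, at 6.92 ± 1.36 against 12.2 ± 0.784 in Th17 and 16.4 ± 2.65 in Th1. In RPM, H2B genes were the one family with its highest mean in Treg, at 16.5 ± 3.03 against 14.7 ± 1.17 in Th1. That difference lay within the spread of the Treg libraries, and the order again depends on the TMM scaling. The H2B gene H2bc21 alone held 85 to 169 counts per Treg library, against 32 to 57 per Th1 library.

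**Figure D1:**
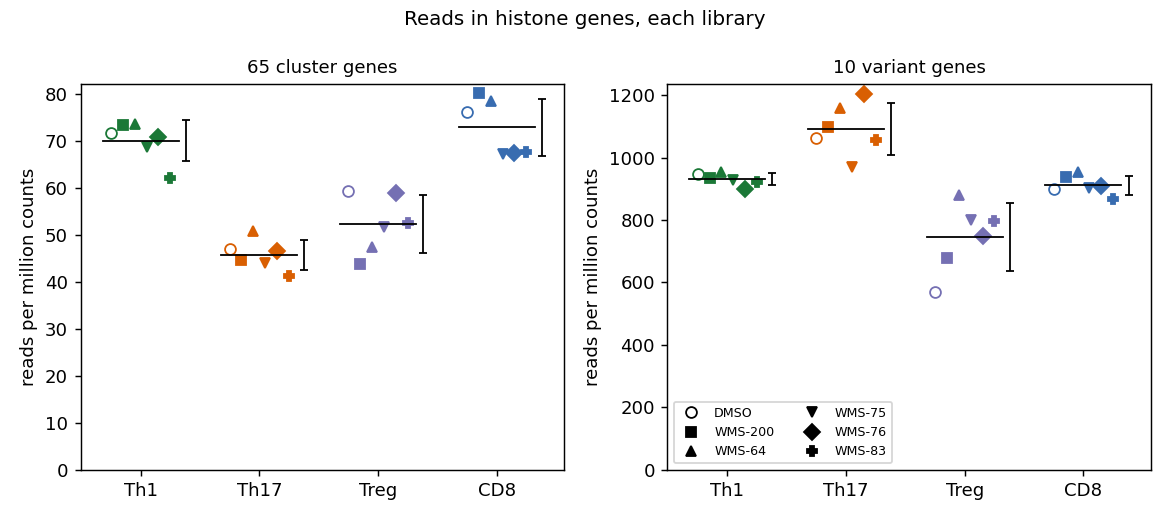
RPM (reads per 1000000 counts) in the 65 cluster genes (left) and the 10 variant genes (right), by cell type on the horizontal axis, with 1 point per library, a symbol per treatment, a line at the mean and a bar for the SD (n = 6). Cluster reads of every Th1 and CD8 library lie above those of every Th17 and Treg library, and the Treg DMSO library has the lowest variant reads, at 568.

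Linker histone genes of the cluster were lower in Th17 cells than in Th1 and CD8 cells. H1f2 (ENSMUSG00000036181, chr13:23922791-23924350 as the file gives it, build not given in the sources used here) was the highest of them. Its lowest, median and highest values were 8.90, 11.5 and 14.2 CPM in CD8, 9.21, 10.9 and 12.6 in Th1, 3.70, 4.55 and 5.21 in Treg and 3.53, 4.22 and 5.56 in Th17. Every Th1 and CD8 library was above every Th17 and Treg library. H1f3 ran, by the same 3 values, from 2.77 over 3.39 to 4.44 CPM in CD8, from 2.37 over 2.90 to 3.88 in Th1, from 0.860 over 1.37 to 2.43 in Treg and from 0.681 over 1.21 to 1.68 in Th17. Its Th17 values, again, did not overlap those of Th1 or CD8, while the highest Treg value, in the DMSO library, reached the Th1 range. H1f1, H1f4 and H1f5 were low, with medians of 0.263, 0.898 and 0.408 CPM in Th17 against 0.719, 1.72 and 0.970 in Th1, and their ranges in Th17 and Th1 overlapped for H1f1 and H1f5 but not for H1f4.

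In the edgeR quasi-likelihood test across all genes, all 5 tested linker genes of the cluster were lower in Th17 than in Th1. The log2 fold change was -1.31 ± 0.254 (SE) for H1f3 (adjusted p = 1.13e-04), -1.28 ± 0.141 for H1f2 (adjusted p = 2.23e-08), -1.20 ± 0.406 for H1f5 (0.0169), -1.16 ± 0.377 for H1f1 (0.0131) and -1.13 ± 0.332 for H1f4 (0.00641). H1f1 lost its call without the filter on low counts (adjusted p = 0.0698). Over all histone genes tested, 9 were lower in Th17 than in Th1, all of them cluster genes, and 4 were higher, all of them variants. The share of all 15885 genes was 24.1% lower and 23.2% higher. The other 4 cluster genes were H3c7 (-1.22 ± 0.439), H3c10 (-1.05 ± 0.350), H4c9 (-0.86 ± 0.151) and H2bc4 (-0.78 ± 0.213), of which H3c10 and H2bc4 are named for that count. H3c7 lost its call without Th1 WMS-75 (adjusted p = 0.0768), Th17 DMSO (0.0645) or Th17 WMS-75 (0.0807), and without the filter on low counts (0.0553). With length offsets H3c10 was at -0.80 (adjusted p = 0.0600). The median of the 36 tested cluster genes was -0.61 against -0.02 for all genes. With length offsets it was -0.42 against -0.001.

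CD8 cells set against Th17 gave the same 5 linker genes with the opposite sign. H1f1 was higher in CD8 by 1.80 ± 0.368, H1f4 by 1.60 ± 0.330, H1f3 by 1.57 ± 0.252, H1f2 by 1.37 ± 0.141 (adjusted p = 5.68e-09) and H1f5 by 1.13 ± 0.407 (adjusted p = 0.0244). Both comparisons share the Th17 libraries. In all, 10 histone genes were higher in CD8, all in the cluster, where the share of all genes was 24.3%, and 6 were lower, where it was 22.8%. The cluster genes beyond H1 were H4c8 (1.36 ± 0.439), H3c7 (1.19 ± 0.436), H3c10 (1.04 ± 0.350), H4c4 (0.98 ± 0.225) and H4c9 (0.73 ± 0.152), with H4c14 as the 1 cluster gene lower (-1.41 ± 0.531). Of these H4c8, H4c14 and H1f5 were named after their values were seen. With the WT number as a replicate block, H1f1 (2.13, adjusted p = 0.0171), H1f2 (1.22), H1f3 (2.09) and H1f4 (2.06) were the 4 genes called higher, where the share of all genes was 15.1%. H3c10 lost its call without CD8 WMS-200 (adjusted p = 0.0540) or CD8 WMS-76 (0.0560), and H3c7 without Th17 DMSO, Th17 WMS-75, CD8 DMSO or CD8 WMS-200 (0.0509 to 0.0913) or without the filter on low counts (0.0620).

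Few of these genes were called between CD8 and Th1 cells. H4c4, an H4 gene, was the 1 cluster gene called, at 3.17 to 4.41 CPM in CD8 and 1.88 to 3.11 in Th1, with a log2 fold change of 0.74 ± 0.223 (adjusted p = 0.0220). It was called no longer without Th1 DMSO, Th1 WMS-64, Th1 WMS-76, CD8 WMS-200 or CD8 WMS-83 (0.0526 to 0.0756), or without the filter on low counts (0.0697), which leaves 1 higher gene, and H1f10 and H1f0 below make up the rest. That is 2 histone genes higher and 1 lower, where the shares of all genes were 8.69% and 7.26%. H1f2 differed between CD8 and Th1 by 0.09 ± 0.134 and H1f3 by 0.26 ± 0.237.

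**Figure D2:**
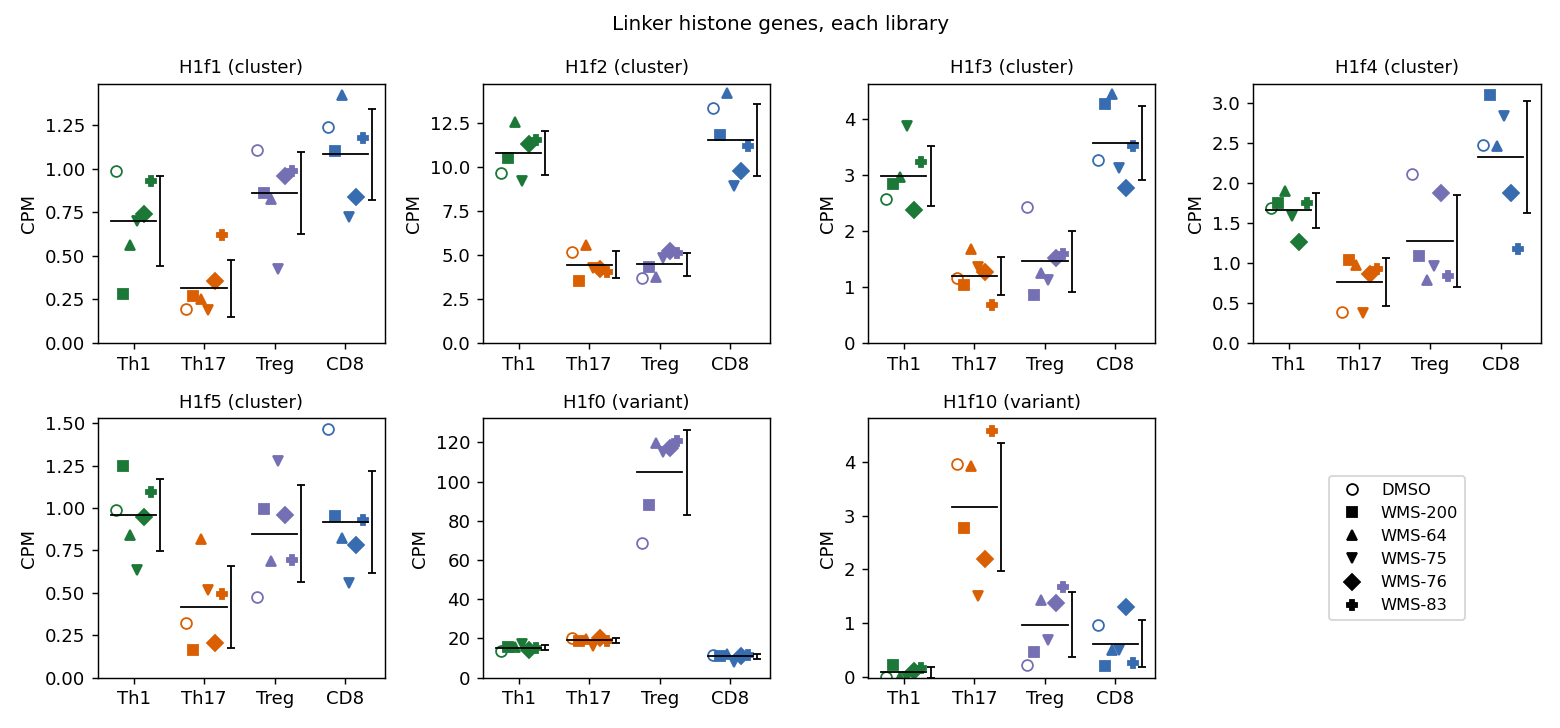
CPM of the 5 tested linker genes of the cluster and of the variants H1f0 and H1f10, by cell type, with 1 point per library, a symbol per treatment, a line at the mean and a bar for the SD (n = 6), each panel with its own vertical axis. H1f2 lies at 3.53 to 5.56 CPM in Th17 and at 8.90 to 14.2 in CD8, while H1f0 lies at 68.5 to 121 CPM in Treg and at or below 20.4 elsewhere.

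H3 genes of the cluster had their lowest values in Treg cells, before any allowance for gene length. H3c3 (chr13:23928956-23929585 as the file gives it) had 0.498, 0.958 and 1.97 CPM as its lowest, median and highest value in Treg, against 3.41, 4.15 and 4.67 in Th17, 2.95, 5.51 and 6.64 in Th1 and 4.56, 4.87 and 5.98 in CD8. No Treg library reached any other library. H3c10 ran from 0.0906 over 0.516 to 1.33 CPM in Treg and from 1.53 over 1.97 to 2.77 in Th1, and H3c8 from 0 over 0.297 to 0.411 in Treg and from 0.601 over 0.893 to 1.59 in Th1. Against Th1, H3c3 changed by -2.30 ± 0.264 (adjusted p = 1.39e-08), H3c10 by -1.87 ± 0.366 and H3c8 by -1.77 ± 0.462, and all 7 tested H3 genes of the cluster were called lower, 2 of them also with the length offsets described next. H3c7 was not called there without Th1 WMS-75 (adjusted p = 0.0562). Of the 42 histone genes, 23 were lower and 3 higher in Treg than in Th1, where the shares of all genes were 37.3% and 40.1%. Against CD8 it was 25 lower and 3 higher (37.8% and 40.2% of all genes), with H3c3 at -2.21 ± 0.263, H3c8 at -2.03 ± 0.460 and H3c10 at -1.87 ± 0.367. Against Th17 it was 10 lower and 5 higher (36.5% and 38.3%), with H3c3 at -1.90 ± 0.265.

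These Treg values moved with gene length, and cluster genes are short, with a median of 534 bases. Among the other protein-coding genes, the median log2 fold change of Treg over Th1 was -1.24 for the 263 genes under 1000 bases, -0.45 for the 3217 genes of 1000 to 3000 bases and 0.12 for the 9045 longer ones. In CD8 over Th1 the same medians were -0.01, -0.02 and 0.00, and in Th17 over Th1 -0.14, -0.07 and 0.01. With an offset per library fitted to gene length, those Treg medians became -0.21, 0.03 and -0.01, and 6 histone genes were lower in Treg than in Th1 and 10 higher, where the shares of all genes were 35.0% and 43.9%. The same counts were 6 lower and 13 higher against Th17 (34.7% and 42.2%) and 6 lower and 13 higher against CD8 (35.0% and 44.2%). The median of the 36 cluster genes in Treg over Th1 went from -0.87 to 0.27, against 0.09 and 0.17 for all genes. What part of the Treg difference goes with length, or with the low share of ribosomal protein genes, was not tested further.

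Some cluster genes stayed lower in Treg under both fits. H3c3 was at -1.12 with length offsets against Th1, -0.91 against Th17 and -1.06 against CD8, and was called in all 3. H1f2 was at -0.60 against Th1 and -0.68 against CD8 and H1f3 at -1.23 and -1.47, all called. The offset of H1f3 rests on its length in the file, 7425 bases, and its GENCODE model holds 4884 bases behind the stem-loop. How a shorter length would move its value was not tested. H3c6 was at -1.63 ± 0.247 and -0.60, also called against Th1. H3c10 (-0.46) and H3c8 (-0.52) were not called against Th1 with length offsets. H1f2 was at 0.02 ± 0.145 in Treg over Th17 without the offsets and was called higher in Treg with them (0.59).

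**Figure D3:**
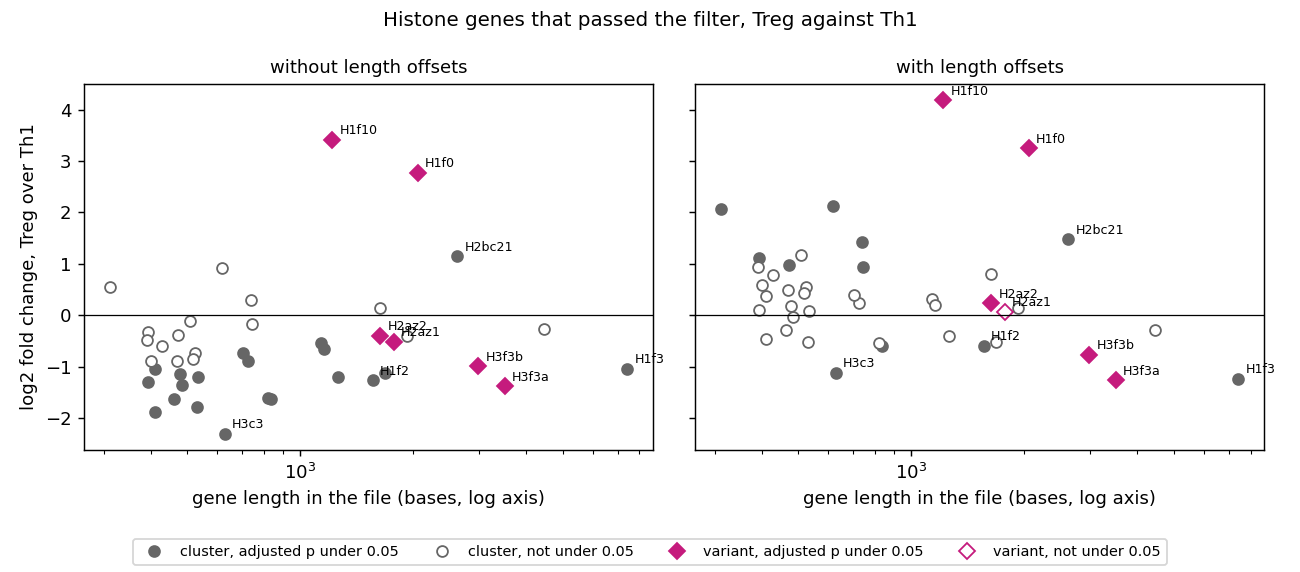
Log2 fold change of Treg over Th1 for the 42 tested histone genes (vertical axis) against gene length in the file (horizontal log axis), without (left) and with (right) length offsets. Filled symbols have an adjusted p under 0.05. Short cluster genes lie mostly below 0 on the left and around it on the right, while H3c3, H1f2, H1f3, H3f3a and H3f3b lie below 0 and H1f0, H1f10 and H2bc21 above 0 in both panels.

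Without length offsets, 1 of the 36 tested cluster genes was higher in Treg than in Th1, 2 were higher than in CD8 and 4 than in Th17. The shares of all genes higher were 40.1%, 40.2% and 38.3%. With the offsets it was 7, 9 and 12 of 36, still below the shares of all genes, 43.9%, 44.2% and 42.2%. H2bc21, an H2B gene on chromosome 3 whose product is known as a replacement H2B of mouse olfactory neurons, had 4.53, 6.07 and 8.35 CPM as lowest, median and highest value in Treg, and its highest value elsewhere was 4.45, in a Th17 library. It was named after its values were seen. The log2 fold change was 1.15 ± 0.191 against Th1, 0.84 ± 0.188 against Th17 and 1.19 ± 0.192 against CD8, and 1.47, 1.11 and 1.53 with length offsets, called in each. Its model holds 2192 bases behind the stop codon and no stem-loop pattern, and 100% of its windows are unique. H2bc8 was higher in Treg than in Th17 by 1.79 ± 0.457 and H1f1 by 1.46 ± 0.369, at medians of 0.997 against 0.219 CPM and 0.910 against 0.263 CPM. With the replicate block, H1f1 kept its call against Th17 (1.56, adjusted p = 0.0315) and H2bc8 lost it (adjusted p = 0.0797), and 3 histone genes were higher, where the share of all genes was 30.6%.

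The remaining cluster genes among the 12 highest per kilobase are taken one by one. H4c9, the highest, was at 6.61 to 11.04 CPM in Th1 and 6.68 to 8.99 in CD8, and at 3.84 to 5.51 in Th17 and 3.12 to 5.34 in Treg, so that its ranges in Th17 and Treg lay below those in Th1 and CD8. H2bc11 was at 2.66 to 4.79 CPM in Th17 and 4.26 to 6.23 in Th1 and did not pass the test between them (-0.58 ± 0.325, adjusted p = 0.151). H3c1 was at 2.11 to 4.09 and 2.30 to 5.12 CPM in the same pair (-0.09 ± 0.290). H2ac8, H2ac11 and H2ac13, all H2A genes, were at -0.39 ± 0.284, -0.48 ± 0.378 and -0.46 ± 0.383 in Th17 over Th1, and 0 of the 7 tested H2A genes passed there at an adjusted p, with 1 of them under an unadjusted p of 0.05. In Treg over Th1, H2bc11 (-1.63 ± 0.343), H3c1 (-1.21 ± 0.304), H2ac11 (-1.36 ± 0.400), H2ac13 (-1.31 ± 0.399), H3c11 (-1.05 ± 0.353), H4c9 (-0.89 ± 0.151) and H2ac8 (-0.74 ± 0.287) were called lower without length offsets and none of these 7 with them (-0.29 to 0.39). H4c4 was at -0.54 ± 0.231 and 0.31. H2ac8 lost its call without Th1 DMSO (adjusted p = 0.0534) or Treg WMS-76 (0.0634), and H4c4 without Th1 WMS-75 (0.108), Th1 WMS-83 (0.0525), Treg DMSO (0.0666) or Treg WMS-200 (0.106) and without the filter (0.119).

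Among the variants, the genes of H3.3 were lowest in Treg cells. H3f3a had 82.0, 118 and 150 CPM as lowest, median and highest value in Treg, and 276 to 390 CPM in the other 18 libraries. H3f3b had 164, 209 and 233 CPM in Treg and 376 to 562 elsewhere. Neither gene's Treg range met that of any other cell type. In Treg over Th1 the log2 fold change was -1.38 ± 0.0887 for H3f3a (adjusted p = 1.90e-13) and -0.99 ± 0.0729 for H3f3b (2.42e-12), and with length offsets -1.27 and -0.77. Against Th17 it was -1.50 ± 0.0889 and -1.27 ± 0.0733, and against CD8 -1.38 ± 0.0887 and -0.96 ± 0.0729, all called with length offsets too. H3f3b was higher in Th17 than in Th1 (0.27 ± 0.0721, adjusted p = 0.00268) and lower in CD8 than in Th17 (-0.31 ± 0.0721), while H3f3a passed in neither (0.12 ± 0.0866 and -0.12 ± 0.0866). An antisense gene, H3f3aos, overlaps H3f3a, and without a stated strand setting their reads cannot be told apart.

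The H2A.Z genes gave smaller differences whose direction in Treg depended on the length offsets. H2az1 was at 119 to 200 CPM in Treg, 227 to 239 in Th1, 211 to 300 in Th17 and 203 to 217 in CD8, and H2az2 at 22.6 to 36.6, 35.2 to 41.5, 40.6 to 54.6 and 36.6 to 50.2 CPM. Treg values of H2az1 lay below all others, and those of H2az2 overlapped Th1 and CD8. In Treg over Th1, H2az1 changed by -0.51 ± 0.0859 and H2az2 by -0.40 ± 0.0860, both called, but by 0.07 and 0.24 with length offsets. Against Th17 both were lower in either fit (-0.68 ± 0.0860 and -0.72 ± 0.0857, with offsets -0.18 and -0.17). H2az2 was higher in Th17 than in Th1 (0.32 ± 0.0851), and both were lower in CD8 than in Th17 (-0.33 ± 0.0855 and -0.25 ± 0.0849). The last call of H2az2 was lost without Th17 DMSO, Th17 WMS-76 or CD8 WMS-83 (adjusted p = 0.0563, 0.0514 and 0.0749).

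H1f0 (ENSMUSG00000096210, chr15:78912650-78914704 as the file gives it) was far higher in Treg cells than in the other 3. Its lowest, median and highest values were 68.5, 116 and 121 CPM in Treg, 16.4, 19.2 and 20.4 in Th17, 13.8, 15.4 and 17.1 in Th1 and 8.01, 11.2 and 12.1 in CD8. Treg values stood above all others and CD8 values below all others. The log2 fold change of Treg was 2.77 ± 0.115 over Th1 (adjusted p = 3.91e-17), 2.45 ± 0.113 over Th17 and 3.27 ± 0.118 over CD8, and 3.25, 2.87 and 3.76 with length offsets. It was also lower in CD8 than in Th1 (-0.49 ± 0.119) and than in Th17 (-0.81 ± 0.117), and higher in Th17 than in Th1 (0.32 ± 0.115), a call lost without Th1 WMS-64 (adjusted p = 0.0509), Th1 WMS-76 (0.0668) or Th17 DMSO (0.0868). In Treg, then, the linker genes did not move as 1 group, with H1f0 higher and H1f2 and H1f3 lower than in Th1 under both fits. The linker genes of the cluster were themselves split with length offsets. Of the 5 tested, 2 were called higher than in Th1, by up to 1.42, and 2 lower, where the shares of all genes were 43.9% and 35.0%.

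H1f10, which encodes the linker histone H1.10, was low throughout and highest in Th17. It had 0 counts in 3 of the 6 Th1 libraries and 2 to 4 in the others. In CPM the lowest, median and highest values were 1.495, 3.35 and 4.58 in Th17, 0.211, 1.03 and 1.68 in Treg, 0.200, 0.497 and 1.31 in CD8 and 0, 0.0527 and 0.226 in Th1. Th1 and Th17 did not overlap, nor did Th17 and CD8. Th17 was above Th1 by 5.17 ± 0.629 (adjusted p = 1.31e-07), Treg by 3.41 ± 0.657 and CD8 by 2.82 ± 0.687, sizes that rest on the near absence of reads in Th1. Treg was below Th17 by -1.76 ± 0.466 and CD8 by -2.35 ± 0.490. The other 4 variants had too few reads to test: H1f8, an oocyte linker histone, had 21 counts in all, H1f7, a testis one, 3, H1f9, a spermatid one, 0, and H3f4 156, in a locus that overlaps Trim17.

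Genes that act with histones were read beside them, from lists drawn up with earlier results of these data known. The shares of all genes to read their counts against are 23.2% higher and 24.1% lower in Th17 over Th1, 24.3% and 22.8% in CD8 over Th17, and 40.1% and 37.3% in Treg over Th1. DNA replication genes, 25 in all, ran against the linker genes in Th17 over Th1. There 12 were higher and 0 lower, with Gins1 at 0.84 and Mcm6, a subunit of the replicative helicase, at 0.80. In CD8 over Th17, 5 were lower, a count near the share of all genes (22.8%), and 0 were higher. Of 20 mitosis genes, 12 were higher and 0 lower in Th17 than in Th1, with Cenpf at 0.76 and Mki67 at 0.73, and 6 were lower in CD8 than in Th17. Their summed level per library was 3848 to 4567 CPM for replication genes in Th17 and 3297 to 3435 in Th1, so Th17 libraries had fewer cluster reads and more replication gene reads than every Th1 library.

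In Treg over Th1, 20 of 25 replication genes were lower and 3 higher, with Mcm3 at -1.64 and Gins2, of the GINS complex, at -1.57, and with length offsets it was 19 and 3 (-1.57 and -1.55). The 20 mitosis genes were mixed, with 9 higher and 3 lower, where the shares of all genes were 40.1% and 37.3%. Mki67 was at 1.59 and Cenpe at 1.41, while Cdk1 was at -0.81, Ube2c at -0.54 and Aurka at -0.36, all called. With offsets it was 10 and 2, where the shares of all genes were 43.9% and 35.0%. Mki67 and Cenpe were then at 1.27 and 1.16, Cdk1 at -0.87, Ube2c at -0.23 and Aurka at -0.03, the last 2 not called. The 22 genes of histone transcription and 3′ end processing were split in both pairs. In Th17 over Th1, 6 were higher and 5 lower, with Pou2f1, which binds the octamer, at 0.83 and Zfp473, whose human counterpart takes part in histone pre-mRNA processing, at -0.86. In Treg over Th1 it was 7 and 8, with Pou2f1 at 1.45, Lsm10, of the U7 snRNP, at -1.64 and Cpsf2 at -1.27. With length offsets it was 5 and 8, and these genes were at 0.83, -0.66 and -1.39, all called. Of 30 histone chaperones, 8 were higher and 4 lower in Th17 over Th1, and 8 and 17 in Treg over Th1, where Atrx, which deposits H3.3, was at 1.59 and Hjurp, the CENP-A chaperone, at 1.49, and Set was at -1.64. With length offsets it was 6 and 18, with 0.81, 1.25 and -1.62. Of 10 genes of histone mRNA decay, 3 were higher and 0 lower in Th17 over Th1, and 4 and 4 in Treg over Th1, with the nuclease gene Eri1 at -1.14, or 5 and 4 and -1.40 with the offsets. Of 6 tested genes of other variants, 0 were higher and 1 lower in Th17 over Th1, and 1 and 2 in Treg over Th1. The higher one was Cenpa, the centromeric H3, at 1.56 (1.44 with length offsets), and the lower ones H2ax at -0.59 and H2aj at -0.68, neither called lower with the offsets. Of 20 listed genes of RNAs without a poly(A) tail, 2 were tested. Rn7sk was lower in Th17 than in Th1 by -1.26 and higher in CD8 than in Th17 by 1.20, and Scarna2 was at 0.12 (adjusted p = 0.830) and 0.12 (0.831).

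The agonists were first compared with DMSO over the 4 cell types. No histone gene passed the edgeR quasi-likelihood test in 4 DMSO against 20 agonist libraries, nor did any of the 15885 genes (0%). At an unadjusted p under 0.05 there were 2 of 42, H2ac15 (-0.97 ± 0.393, adjusted p = 0.992) and H3f3a (0.17 ± 0.0836), and DESeq2 and limma-voom called 0 as well. The median over the 42 genes was -0.05, against 0.01 for all genes. In the companion lists, 0 genes were called. Against DMSO each compound also called 0 histone genes, and called 0% of all genes. At an unadjusted p under 0.05 there were 3 histone genes with WMS-64, among them H3f3a (0.30 ± 0.107), 1 with WMS-200, 1 with WMS-75, and 0 each with WMS-83 and WMS-76. By chance alone a share of 0.05 of genes would fall under that threshold, and the share of all genes there is not given here. Counts at an unadjusted p, here and below, are therefore not read as effects.

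The 5 agonists share 1 dose, and 10 pairs of them were compared, with p-values adjusted over all genes in each pair. No pair called a histone gene, by edgeR, DESeq2 or limma-voom, and neither did the F-test among the 5 (0% of all genes). Over all genes, WMS-200 against WMS-76 called 0.0063% and the other 9 pairs 0%. The smallest adjusted p of a histone gene in any pair was 0.566, for H4c12 in WMS-64 against WMS-75 (1.63 ± 0.564), the pair with the most histone genes at an unadjusted p under 0.05, at 3. These tests do not show that the compounds act alike. The 95% interval of a difference reached, at the median of the 42 genes, 0.872 to 0.913 to either side on the log2 scale over the 10 pairs, and for the least precise gene 1.47 to 1.54.

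By library, cluster RPM was below the DMSO library of the same cell type in all 4 cell types with WMS-75 (log2 ratio -0.20 to -0.07), WMS-76 (-0.17 to -0.01) and WMS-83 (-0.21 to -0.17). It was above it in 2 of 4 with WMS-200 and in 3 of 4 with WMS-64. These ratios are a description of single libraries, since each cell type has 1 DMSO library that all 5 share, and the SD between libraries of a cell type was 3.26 to 6.14 RPM.

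Inside single cell types, the 5 agonist libraries were set against the 1 DMSO library, which was assumed to vary like the others. No histone gene was called in Th1 (0% of all genes, 1 histone gene, H2bc9, at an unadjusted p under 0.05), in Th17 (0.0126% of all genes higher and 0.0252% lower, 0 histone genes at an unadjusted p under 0.05) or in CD8 (0% higher and 0.0063% lower, likewise 0), and DESeq2 and limma-voom gave 0 there too. With the WT number as a replicate block, 2 were called higher in Th17, H2bc11 (4.22 ± 0.889, adjusted p = 0.0157) and H3c1 (3.93 ± 0.833, 0.0163), where the share of all genes was 0.441%. The Th17 library with DMSO has the WT number 2, that with WMS-83 the number 3 and the remaining libraries the number 1. This fit therefore rests on the WMS-83 and DMSO libraries and on the difference between numbers 2 and 3 among the Treg agonist libraries. Number 3 is there the WMS-200 library alone, with 3 counts of H2bc11 and 5 of H3c1. The other Treg agonist libraries had 27 to 62 and 26 to 55. In Th17 itself, DMSO and WMS-83 had 48 and 59 counts of H2bc11 and 33 and 66 of H3c1. In Treg 4 were higher, all variants, and 0 lower, where the shares of all genes were 7.64% and 1.18%. H1f0 was at 68.5 CPM with DMSO and at 87.9 with WMS-200, 120 with WMS-64, 115 with WMS-75, 117 with WMS-76 and 121 with WMS-83. H3f3a was at 82.0 CPM with DMSO and, in the same order of compounds, at 104, 150, 124, 112 and 126. For H2az1 it was 119 CPM and 140, 200, 174, 166 and 183, and for H3f3b 164 CPM and 199, 233, 214, 204 and 232. The DMSO library was the lowest of the 6 for each of these genes and for H2az2, and the WMS-200 library the next lowest.

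The log2 fold changes of the agonists over DMSO in Treg were 0.71 ± 0.165 for H1f0 (adjusted p = 0.00870), 0.59 ± 0.148 for H3f3a (0.0142), 0.54 ± 0.144 for H2az1 (0.0188) and 0.40 ± 0.126 for H3f3b (0.0416), and 0.49 for H2az2 (0.0723). With length offsets H1f0 (0.52, adjusted p = 0.0268) and H3f3a (0.48, 0.0367) were called, where 4.15% of all genes were higher, and H2az1 (0.0895) and H3f3b (0.144) were not. In Treg DMSO and WMS-200 share the WT number 3 and the remaining compounds the number 2, so that with it as a replicate block the comparison rests on WMS-200 against DMSO. Then 0 histone genes were called, with H1f0 at 0.36 (adjusted p = 0.466), H3f3a at 0.35 (0.453), H2az1 at 0.24 (0.631) and H3f3b at 0.28 (0.531), and 0.0881% of all genes were higher. Agonist and WT number cannot be told apart for the other 4 compounds in Treg. The Treg DMSO library also had the fewest counts in replication genes, at 1396 CPM against 1670 to 2628, in mitosis genes, at 2372 against 2560 to 4475, and in ribosomal protein genes, at 1.66% against 2.07% to 2.87%, and the highest B cell marker sum, at 9.57 against 5.03 to 8.60 CPM, whose part in the result was not tested.

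None of the 36 cluster genes was called in Treg, with a median of -0.15 over them against 0.56 over the 6 variants and 0.07 over all genes. Cluster genes were estimated less precisely and went both ways, with H3c6 at 1.37 ± 0.579 (adjusted p = 0.143) and H1f3 at -0.94 ± 0.414 (0.162), both chosen as examples after their values were seen, so a rise of the size seen in the variants is not excluded for them, and a difference between the sets was not tested. The test of whether the agonist effect differs between the cell types called 0 histone genes (0.176% of all genes), with 4 at an unadjusted p under 0.05, namely H1f0 (adjusted p = 0.153), H3f3a (0.213), H2az1 (0.235) and H3c8 (0.327). It called 2 without Treg WMS-200, 3 without the filter on low counts and 1 with the WT number as a replicate block. The share of all genes called in those settings is not given here, so these counts are not read as particular to histone genes. With the filter and all libraries, the higher variants in Treg are not shown to differ from the other cell types, where the log2 ratios of H1f0 to DMSO ran from -0.52 to 0.08 in CD8, from -0.31 to 0.00 in Th17 and from 0.01 to 0.31 in Th1.

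**Figure D4:**
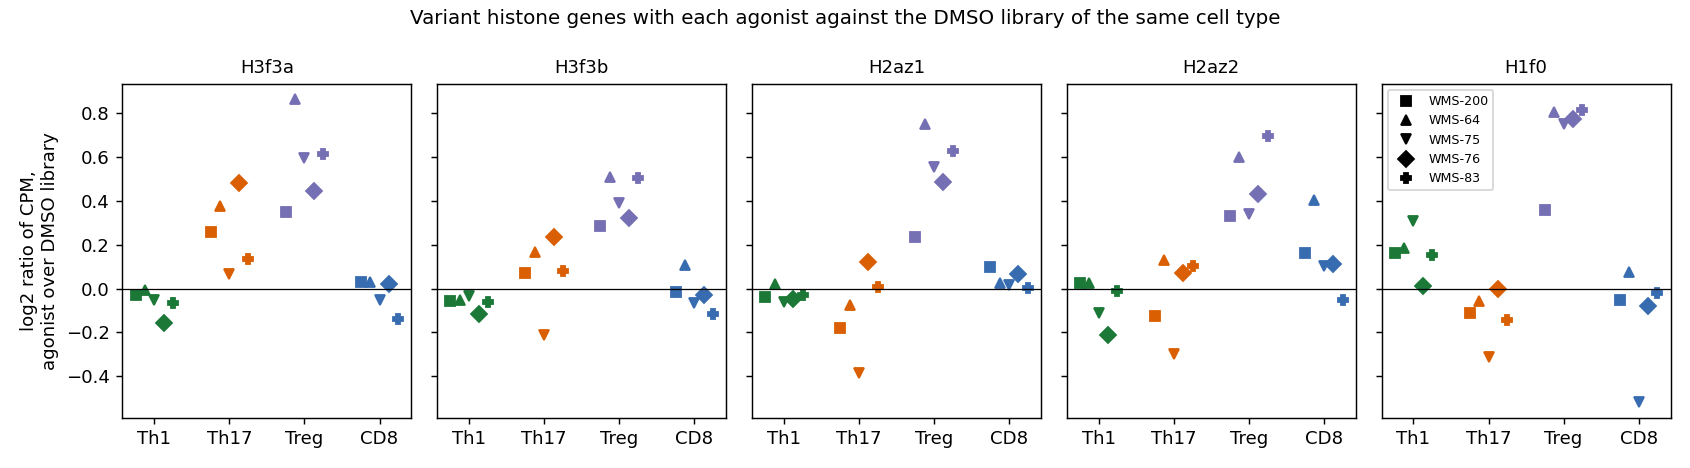
Log2 ratio of CPM of each agonist library to the DMSO library of the same cell type for H3f3a, H3f3b, H2az1, H2az2 and H1f0, with 1 point per compound and no error bar, since each point is a pair of single libraries. All 5 compounds lie above 0 in Treg for each of the 5 genes, from 0.24 to 0.87, and the points of Th1, Th17 and CD8 lie between -0.52 and 0.48.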

How the data were processed

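The authors deposited 1 table of raw read counts by gene for 24 libraries, and the submitters' processing notes name featureCounts, HISAT2 and fastp. The sources used here give no versions, genome build, annotation, strand setting or treatment of reads that match several genes. Coordinates in the file matched GENCODE M21 for 0 of 75 members and were left unconverted. Each value column had a labelled sample, and 0 were unused. CD8 libraries are called Tc1 in the columns. For 1 library the title says Th17 and WMS-83 while every other label says Th1, which was followed.

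The filter on low counts was filterByExpr of edgeR, grouped by cell type, with 10 as the minimum count. Quasi-likelihood models (edgeR 4.0.16, R 4.3.3, TMM, robust) were fitted to all genes, with cell type and compound (15 residual degrees of freedom, biological coefficient of variation 0.133) for pairs of cell types and for compounds, and with agonist or DMSO within each cell type (16 degrees, 0.127) otherwise. Benjamini-Hochberg adjustment ran over the 15885 genes at a threshold of 0.05. Length offsets came from a spline of 5 degrees of freedom per library over log gene length. The procedure was tested on simulated data.

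Alternatives were DESeq2 1.42.0, limma-voom 3.58.1, other size factors, no filter, no compound term, another denominator, each library left out, and the WT number as a block. The members and lists were chosen with earlier results of these data known. Named are each tested variant, the 12 cluster genes highest per kilobase, the 3 called cluster genes of largest change per pair of cell types, and members called with agonists or of smallest p; others are marked. Stem-loops were sought in GENCODE M21 coding transcripts by a letter pattern of 2 arms of 6 bases around a 4-base loop. The first arm was GG, pyrimidines and T, and the second A, purines and CC. Pairing of the pyrimidines with the purines was not required. Promoters are RefSeq's. Intervals cover the spread between these libraries only.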

Additional observations from a re-analysis of the deposited data

Results flagged for a closer look

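Among 104 groups of 6 libraries, 1 gene and cell type each, 5 had a library far from the other 5 by Dixon's criterion, where chance gives about 1 in 20. H3c3 was at 2.95 CPM in the Th1 library with WMS-83 and at 5.27 to 6.64 in the other Th1 libraries. H4c4 was at 3.11 CPM in the Th1 library with WMS-75, against 1.88 to 2.26. H2ac8 was at 2.19 CPM in the Treg library with WMS-75, against 0.868 to 1.20. H1f0 was at 8.01 CPM in the CD8 library with WMS-75, against 10.9 to 12.1. H2ac11 was at 0.247 CPM in the CD8 library with WMS-83, against 1.58 to 2.30. Each is a single library with no replicate of its treatment in that cell type.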

How the results depend on the processing

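Between Treg and the other cell types, counts of called histone genes moved most with length offsets. In Treg over Th1 they were 10 higher and 6 lower, and in Treg over Th17 and in Treg over CD8 13 higher and 6 lower each. With agonists in Treg the count with length offsets was 2. That count, and the count of genes higher in CD8 than in Th17, moved further with the replicate block below. Signs turned under these offsets in Treg over Th1 for H2az1 (0.068), H2az2 (0.24), H4c9 (0.23), H3c1 (0.075), H2ac13 (0.10), H2ac8 (0.39), H3c11 (0.38) and H4c4 (0.31), in Treg over Th17 for H2bc11 (0.059), and in Treg over CD8 for H2az1 (0.24), H2az2 (0.17), H4c9 (0.34), H2ac13 (0.22) and H2ac8 (0.11); the cause was not tested. In CD8 over Th1, no filter gave 1 higher and 2 lower, and DESeq2, limma-voom and no compound term gave 2 lower each. No filter gave 3 genes whose agonist effect differed between cell types. The share of all genes called without the filter is not given here. Without ribosomal protein and mitochondrial genes in the total, RPM of cluster genes by protein-coding counts was 84.5 in CD8, 82.6 in Th1, 55.7 in Treg and 53.4 in Th17. That of variants was, in the same order, 1055, 1095, 792 and 1274. This denominator is smaller by construction.

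With the WT number as a replicate block, Treg over Th17 gave 3 higher, CD8 over Th17 4 higher, agonists in Treg 0, agonists in Th17 2 (H2bc11 at 4.22 and H3c1 at 3.93) and the test of a differing agonist effect 1. The sizes of H2bc11 and H3c1 rest in part on their few counts in the Treg WMS-200 library. No paired analysis was possible for pairs with Th1 because all Th1 libraries carry 1 number that no other cell type has. Leaving out each library gave 3 to 5 higher and 8 to 11 lower in Th17 over Th1, 3 to 4 and 20 to 24 in Treg over Th1, 1 to 2 and 1 to 2 in CD8 over Th1, 4 to 6 and 10 to 13 in Treg over Th17, 8 to 13 and 4 to 6 in CD8 over Th17, 3 to 3 and 23 to 26 in Treg over CD8, 3 to 6 for agonists in Treg, 0 to 2 for a differing agonist effect and 0 to 0 for every other agonist comparison. For fits without a library the share of all genes called is not given here, so their counts are not read as particular to histone genes. Depth limits the cluster genes, with 737 to 1682 counts over all of them in a library.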
